A study of Mus musculus with 8 samples.

Results

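The mouse mirtrons on the PCR panels were miR-702 and both strands of the miR-877 hairpin. They were picked by assay name: of 517 mouse miRNA assays, 3 carried the names mmu-miR-702, mmu-miR-877 or mmu-miR-877* (the star marks the strand that an older catalogue took to be the rarer product), and these 3 come from 2 hairpins. The group was put together with the levels of these assays in plaque and artery already known, so the difference between plaque and artery is described below and no p-value is given for the 3 assays. Where a fit over all miRNAs called some of them, the call is a description of values known beforehand and supports nothing.

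All samples came from female mice of the strain apoe-/-, which have no apolipoprotein E and are prone to atherosclerotic plaques. Mice aged 6 to 8 weeks received a diet with 21% crude fat for 3 months, and laser capture microdissection then cut tissue out of paraffin sections, at least 40 sections per mouse. Early plaque of the aortic root (4 biological replicates, plaque 1 to 4) was compared with arterial wall of normal appearance (4 biological replicates, undiseased artery 1 to 4), and miRNAs were read by real-time PCR. All mice lacked the Apoe gene and ate the same diet, and the plaque is labelled aortic root while the undiseased tissue is labelled artery only, so the vessel sampled and the presence of plaque cannot be told apart.

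Most miRNA precursors are cut out of a longer transcript by the nuclease Drosha with its partner DGCR8. A mirtron skips this step: it is a short intron, and once the spliceosome has released it and the lariat has been opened, it folds into a hairpin that Dicer can process like any other. In general the ends of an intron are the donor site, which begins with GU, and the acceptor site, where a tract rich in C and U leads up to a closing AG. miR-702 is hosted by Plod3, which encodes a lysyl hydroxylase and glycosyltransferase that modifies collagen, and miR-877 by Abcf1, which encodes an ATP-binding protein of translation initiation.

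The mature sequences are shown to tell the strands apart and for their seeds and base composition. They are RefSeq's on build GRCm38, matched by name for all 3 assays, with the seed (bases 2 to 8) in capitals. The old names map to the newer ones as background knowledge: miR-702 is now miR-702-3p, miR-877* is miR-877-3p and miR-877 is miR-877-5p. The table of Ct values gives no probe sequences, and miR-702-5p was not analysed here.
miR-702: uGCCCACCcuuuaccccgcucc
miR-877*: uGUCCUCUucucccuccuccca
miR-877: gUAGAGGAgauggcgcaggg
The 3 seeds differ, and no other mature mouse miRNA in the RefSeq table has any of them. The 2 strands from the 3′ side of their hairpins are rich in C and U, which make up 81.8% of miR-702 and 90.9% of miR-877*. The median share over 1674 different mature sequences listed there is 50%, and 2.51% of them reach the share of miR-702 and 0.119% that of miR-877*. miR-877, from the 5′ side of its hairpin, holds 20% C and U.

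The hairpins are shown for the position of the strands in them, and the capitals mark both mature strands of each.
Mir877: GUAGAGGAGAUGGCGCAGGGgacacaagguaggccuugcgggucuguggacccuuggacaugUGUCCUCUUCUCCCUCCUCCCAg
Mir702: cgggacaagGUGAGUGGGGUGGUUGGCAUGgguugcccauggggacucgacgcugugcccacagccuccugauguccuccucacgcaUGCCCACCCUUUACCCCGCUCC
The Mir877 hairpin (chr17:35960730-35960814, minus strand, 85 bases) lies within the span of Abcf1 (chr17:35956819-35969750). It opens with GU and closes with AG, as 2.99% of the 1005 mouse hairpins in the table do. miR-877 (chr17:35960795-35960814) takes up its first 20 bases, and miR-877* (chr17:35960731-35960752) ends 1 base before its last. The Mir702 hairpin (chr5:136991433-136991541, plus strand, 109 bases) lies within Plod3 (chr5:136987019-136996646). Its 5′ strand begins with GU at base 10 of the annotated hairpin, and miR-702 (chr5:136991520-136991541) forms its last 22 bases, which close with CC. These tables list gene spans without exons, so the intron borders themselves were not read here.

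All 3 mirtron assays amplified in all 8 samples. The raw threshold cycle (Ct), the cycle at which fluorescence crosses a set line, is higher when there is less RNA, and a Ct under 35 counted as detected. For mmu-miR-702 the raw Ct was 27.5, 30.7, 30.5 and 28.0 in plaque 1 to 4, against 29.1, 29.5, 29.8 and 29.8 in undiseased artery 1 to 4. The groups overlapped: plaque 1 and 4 were earlier than all undiseased samples and plaque 2 and 3 later than all of them. For mmu-miR-877* it was 23.0, 26.0, 26.0 and 22.3 in plaque 1 to 4, against 24.5, 24.0, 24.1 and 25.4 in undiseased artery 1 to 4, with the same split of the plaque samples around the undiseased ones. For mmu-miR-877 it was 28.6, 29.6, 29.6 and 27.5 in plaque 1 to 4, against 27.3, 27.2, 27.3 and 28.2 in undiseased artery 1 to 4. Here plaque 1 to 3 were later than all undiseased samples, while plaque 4 fell inside their range.

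Plaque as a whole amplified later, and this is what separates raw from normalised values. Averaged over the 124 miRNAs that all 8 samples detected, raw Ct was 28.0 ± 1.65 in plaque and 25.3 ± 0.885 in undiseased artery (SD, n = 4 each), a difference of 2.70 cycles. Samples with earlier mean Ct in plaque (26.3 in plaque 4, 27.1 in plaque 1) were also those with early miR-702 and miR-877*, and those with later mean Ct (28.8 in plaque 2, 29.9 in plaque 3) had them late. Between 148 and 240 miRNAs were detected per plaque sample, against 227 to 288 per undiseased sample. Among tissue markers, smooth muscle miR-143 and miR-145 (log2 differences -4.95 and -5.30) were called lower in plaque by limma and miR-155 of activated leukocytes (2.79) higher. Endothelial miR-126-3p (-1.15), leukocyte miR-142-3p (-0.22) and miR-223 (0.50), erythroid miR-451 (-1.56) and muscle miR-1 (0.61, detected in 3 of 4 plaque and 4 of 4 undiseased samples) did not pass. The heart markers miR-499 and miR-208 were detected in 0 of 8 samples and in 2 of 4 plaque and 0 of 4 undiseased samples. In such bulk tissue, fewer cells of a type and less RNA per cell cannot be told apart.

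**Figure D1:**
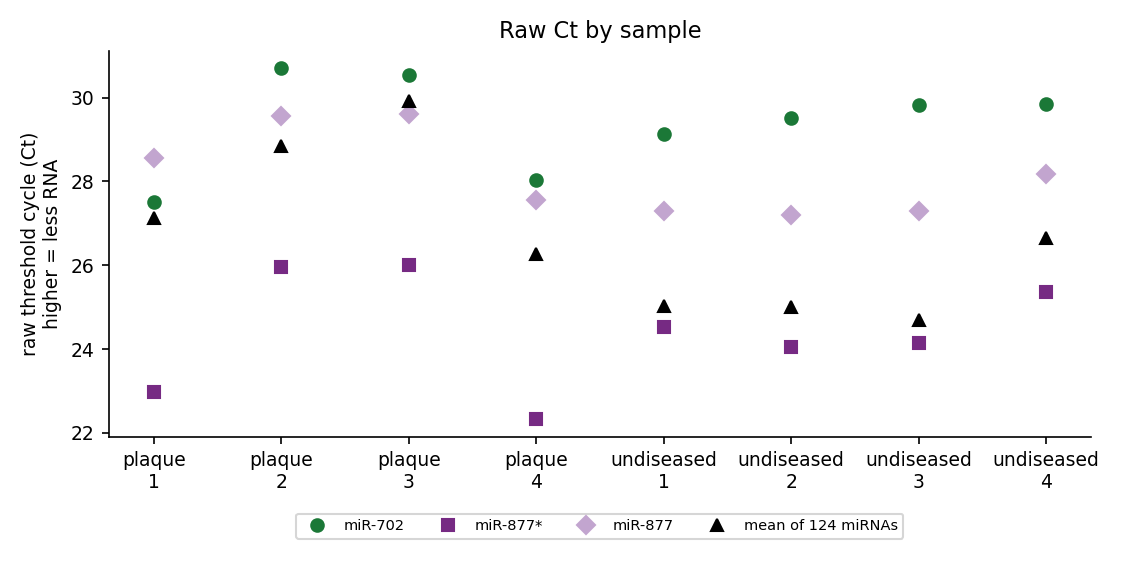
Raw Ct (vertical axis, in cycles, higher meaning less RNA) of miR-702, miR-877* and miR-877 and the mean over 124 miRNAs found in each sample, for plaque 1 to 4 and undiseased artery 1 to 4. The mean (triangles) sits at 26.3 to 29.9 in plaque and 24.7 to 26.6 in undiseased artery, whereas miR-702 and miR-877* are early in plaque 1 and 4 and late in plaque 2 and 3.

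Relative to the average miRNA of each sample, miR-702 and miR-877* were both higher in plaque, by 8.48-fold and 7.44-fold if amplification is fully efficient, and miR-877 by 2.60-fold. The normalised level is the mean Ct of the 124 miRNAs in a sample minus the Ct of the assay, so a higher level means more RNA and 1 unit is 1 cycle. Levels of different assays cannot be ranked against each other, since efficiencies differ between assays and were not measured.

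The level of miR-702 was -0.38, -1.86, -0.60 and -1.77 in plaque 1 to 4, against -4.11, -4.51, -5.13 and -3.19 in undiseased artery 1 to 4. All plaque samples lay above all undiseased ones, with a gap of 1.33 cycles between the lowest plaque and the highest undiseased sample. Means were -1.15 ± 0.769 in plaque and -4.24 ± 0.813 in undiseased artery (SD, n = 4 each), a log2 difference of 3.08 (SE 0.563). The difference was larger than the SD within either group.

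For miR-877* the level was 4.14, 2.87, 3.92 and 3.93 in plaque 1 to 4, against 0.49, 0.95, 0.54 and 1.29 in undiseased artery 1 to 4. The groups were again apart, by 1.58 cycles, and plaque 2 was the lowest plaque sample as it was for miR-702. Means were 3.71 ± 0.573 in plaque and 0.82 ± 0.377 in undiseased artery (SD, n = 4 each), a log2 difference of 2.90 (SE 0.461).

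The other strand of the same hairpin, miR-877, had levels of -1.43, -0.73, 0.31 and -1.29 in plaque 1 to 4, against -2.28, -2.21, -2.62 and -1.54 in undiseased artery 1 to 4. Plaque 1, highest of its group for the other 2 assays, was the lowest for this one, and plaque 3 was the highest. The groups did not overlap, but undiseased artery 4 came within 0.11 cycles of plaque 1, and under each of the 6 other references tried they overlapped. Means were -0.79 ± 0.790 in plaque and -2.16 ± 0.451 in undiseased artery (SD, n = 4 each), a log2 difference of 1.38 (SE 0.510).

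**Figure D2:**
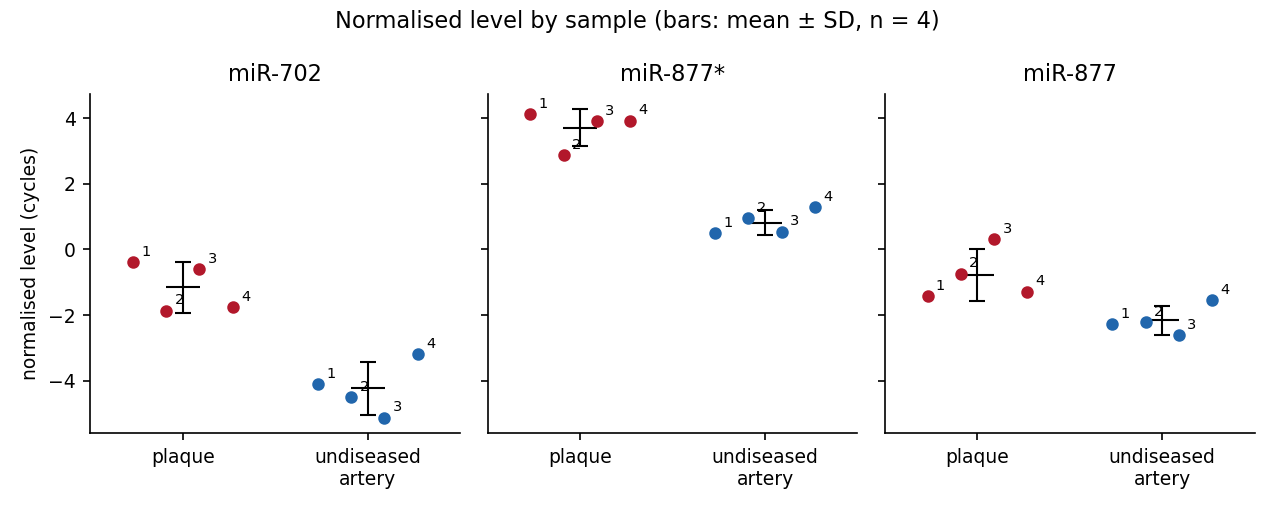
Normalised level (vertical axis, in cycles above the mean of 124 miRNAs, higher meaning more RNA) of each assay in plaque (left) and undiseased artery (right). Points are samples with their replicate number, bars the mean ± SD (n = 4). All plaque points lie above all undiseased points, by 1.33 cycles for miR-702, 1.58 for miR-877* and 0.11 for miR-877.

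In the limma fit of the 172 miRNAs with 3 or more detections per group, 27 were called higher in plaque at an adjusted p of 0.05, which is 15.7%, and miR-702 and miR-877* were among them while miR-877 was not. All plaque levels exceeded all undiseased levels for 14.0% of the 172, and for the 3 mirtron assays. Counted from the largest positive log2 difference, miR-702 ranked 6, miR-877* 11 and miR-877 38 of 172. Nothing can be read from these counts about mirtrons as a class, since the assays were chosen with the values in view.

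The assay panel matters for this ranking. All 3 assays were on panel 2 of 2, and the direction of change over the whole table went with the panel. Most miRNAs whose plaque levels all exceeded the undiseased ones were on panel 2 as well. The median log2 difference was 0.82 over the 63 tested miRNAs of panel 2, of which 20 were called higher (31.7%) and 2 lower, and -0.73 over the 109 of panel 1, of which 7 were called higher and 30 lower. Within panel 2, miR-702 ranked 3, miR-877* 7 and miR-877 28 of 63, so that miR-877 stood near the middle of its panel. When every panel was centred on its own mean, the log2 difference was 2.01 (SE 0.522) for miR-702, 1.82 (SE 0.464) for miR-877* and 0.30 (SE 0.372) for miR-877. On that scale plaque and undiseased levels did not overlap for miR-702 and miR-877*, and they overlapped for miR-877. What part the panel has in the differences was not tested.

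**Figure D3:**
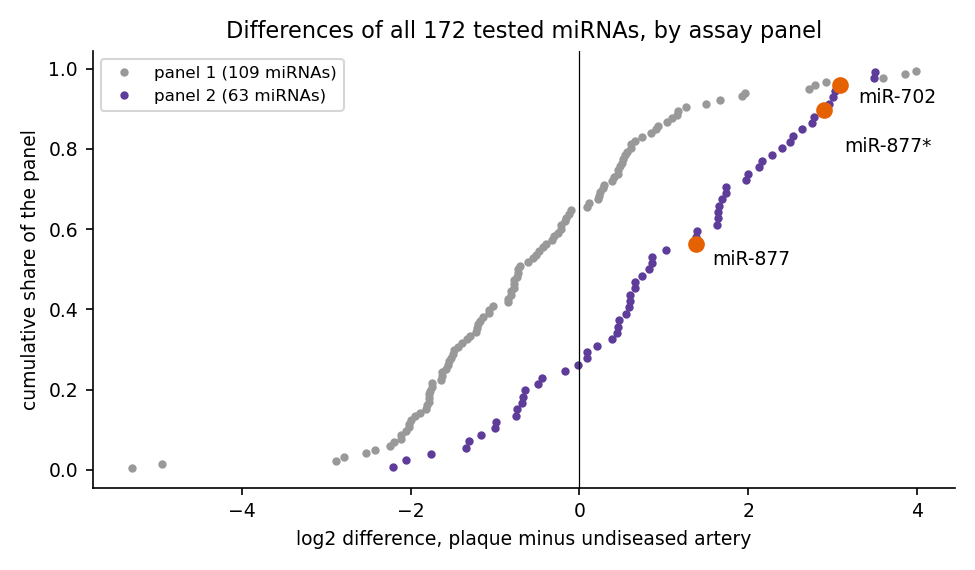
Log2 difference of plaque minus undiseased artery (horizontal axis) for each of the 172 tested miRNAs, against the cumulative share of its panel (vertical axis), with panel 1 in grey, panel 2 in purple and the mirtron assays in orange. The panel 2 curve lies to the right of the panel 1 curve (medians 0.82 and -0.73), and miR-702 and miR-877* stand near its upper end while miR-877 stands near its middle.

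The size of the differences rested on what was subtracted from each sample. Relative to the mean of the 6 control RNAs (U6, U87, Y1, snoRNA135, snoRNA202 and snoRNA429), the level of miR-702 was -3.53, -8.02, -6.62 and -7.77 in plaque 1 to 4, against -8.04, -9.46, -10.01 and -8.83 in undiseased artery 1 to 4. Plaque 2 and undiseased artery 1 nearly met, and plaque 1 stood more than 3 cycles above the other plaque samples. The log2 differences were then 2.60 (SE 1.10) for miR-702, 2.41 (SE 1.10) for miR-877* and 0.89 (SE 1.10) for miR-877, of which limma called 0, as it called 0 of all 172 miRNAs higher.

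With U6 alone, an abundant RNA of the spliceosome, the differences were 2.64, 2.45 and 0.93 (SE 1.33 each). Plaque 4 (-13.9) then lay below undiseased artery 1 (-13.0) and 4 (-13.5) for miR-702. For miR-877* the groups stayed apart, but plaque 4 (-8.21) and undiseased artery 1 (-8.40) nearly met. With U6, limma called none of the mirtron assays. The raw Ct of U6, averaged over its wells, was 20.0, 18.4, 19.2 and 14.1 in plaque 1 to 4. In undiseased artery 1 to 4 it was 16.1, 15.3, 14.9 and 16.3. Plaque 1 and plaque 4 thus differed by several cycles in this control RNA.

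With nothing subtracted, the sign-turned raw Ct differed by 0.39 (SE 0.966) for miR-702, 0.20 (SE 1.03) for miR-877* and -1.32 (SE 0.877) for miR-877, against a median of -2.59 over all 172. Amounts of miR-702 and miR-877* per reaction thus differed between the groups by less than the spread between plaque samples, while the mean of the 124 miRNAs was 2.70 cycles later in plaque. Whether less RNA entered the plaque reactions was not measured.

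**Figure D4:**
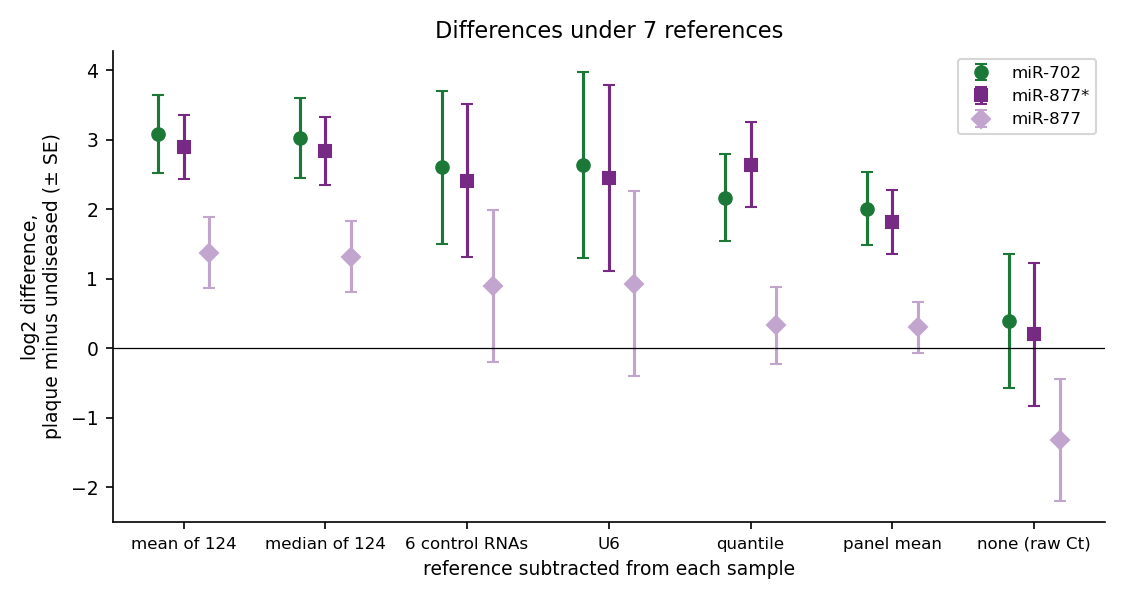
Log2 difference of plaque minus undiseased artery (vertical axis) for the 3 assays under 7 references, with bars for the SE of the limma fit. The points of miR-702 and miR-877* lie between 1.82 and 3.08 under the 6 references that correct for the sample and at 0.39 and 0.20 on raw Ct, and those of miR-877 lie lower under each of the 7 references.

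Differences of raw Ct between 2 assays of a sample need no reference, as both assays ran on the same panel with the same RNA. miR-702 and miR-877*, which come from different genes, stood at a similar distance in both groups. Their levels were known when the group was put together, so this distance describes their similar differences again and adds no support. Ct of miR-702 minus Ct of miR-877* was 4.52, 4.73, 4.52 and 5.70 in plaque 1 to 4, against 4.60, 5.47, 5.68 and 4.49 in undiseased artery 1 to 4. The groups overlapped throughout, with means of 4.87 ± 0.562 in plaque and 5.06 ± 0.601 in undiseased artery (SD, n = 4 each). The difference between those means, -0.19, was smaller than the SD within either group, and it was 0.02 without undiseased artery 3.

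The strands of the miR-877 hairpin did not keep their distance. Ct of miR-877 minus Ct of miR-877* was 5.57, 3.60, 3.61 and 5.22 in plaque 1 to 4, against 2.77, 3.16, 3.16 and 2.83 in undiseased artery 1 to 4. All plaque samples lay above the undiseased range, which spanned only 0.391 cycles, and within plaque the values of plaque 1 and 4 lay well above those of plaque 2 and 3. Plaque 1 and 4 were also the plaque samples with the earlier mean raw Ct (27.1 and 26.3, against 28.8 and 29.9 in plaque 2 and 3), whose part in this split was not tested. The means were 4.50 ± 1.04 in plaque and 2.98 ± 0.209 in undiseased artery (SD, n = 4 each), a shift of 1.52 cycles toward the 3′ strand in plaque, with a range of 1.16 to 1.82 when any 1 sample was left out. This comparison of strands was added after the values were seen, and it has no test.

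A shift of this kind was common between assays of panel 2. Among the 42 miRNAs of that panel detected in all samples there are 861 pairs, and in 27.9% of the pairs the Ct difference did not overlap between plaque and undiseased artery. In 48.8% of the pairs the mean difference moved by at least as much as that between the miR-877 strands, the median size being 1.45 cycles. Of the other 6 hairpins with both strands detected in all 8 samples, only that of miR-126 had them on the same panel, and there the distance of miR-126-5p from miR-126-3p was 3.95 cycles in plaque and 3.08 in undiseased artery, with overlapping groups. For miR-702 against miR-877 the Ct difference was -1.05, 1.13, 0.91 and 0.48 in plaque 1 to 4, against 1.83, 2.30, 2.52 and 1.65 in undiseased artery 1 to 4, so these groups did not overlap either.

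**Figure D5:**
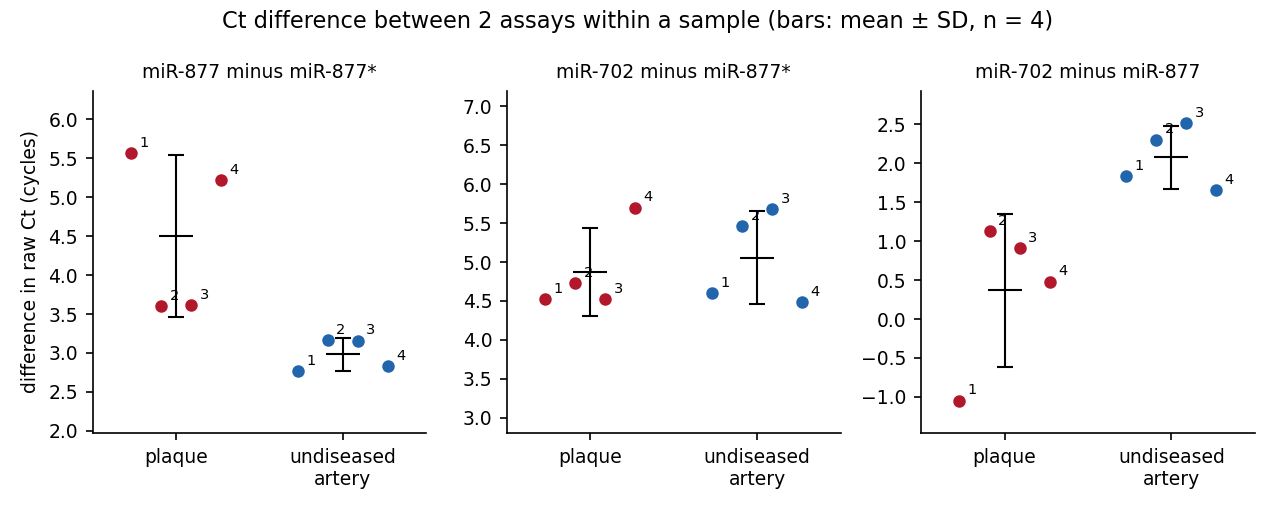
Difference in raw Ct between 2 assays within each sample (vertical axes, in cycles, each of the same length), for plaque (left) and undiseased artery (right), with replicate numbers and the mean ± SD (n = 4). The miR-877 strands stand 3.60 to 5.57 cycles apart in plaque and 2.77 to 3.16 in undiseased artery, miR-702 and miR-877* keep a similar distance in both, and miR-702 moves toward miR-877 in plaque.

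The assays with the most similar pattern over the 8 samples were listed for each mirtron assay. These distances rest largely on the difference between plaque and artery that was known when the assays were chosen, so they describe it again and add no support. Likeness was measured as the root mean square distance, in cycles, between the normalised levels of 2 assays after each assay's own mean was subtracted, over 123 candidates detected in all 8 samples. Nearest to miR-702 was miR-877* (0.513 cycles), followed by miR-720 (0.530), miR-875-5p (0.760), miR-715 (0.773) and miR-692 (0.782), against a median distance of 1.99. Nearest to miR-877* were miR-720 (0.312), miR-21* (0.497), miR-702 (0.513), miR-155 (0.694) and miR-692 (0.733), with a median distance of 1.83. miR-720, a name that belongs to a fragment of a threonine tRNA rather than to a hairpin miRNA, had levels of 12.5, 11.9, 12.4 and 12.3 in plaque 1 to 4, against 9.58, 9.72, 9.36 and 10.5 in undiseased artery 1 to 4.

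Nearest to miR-877 were miR-466d-3p (0.216), miR-467a* (0.387), miR-699 (0.397), miR-135a* (0.463) and miR-678 (0.500), with a median distance of 1.40. The distance between the strands miR-877 and miR-877* was 1.00 cycles, which made miR-877 place 11 of 123 for miR-877* and miR-877* place 33 for miR-877. miR-877 and miR-702 were 1.07 cycles apart, place 15 for miR-702 and place 42 for miR-877. Of the 11 different neighbours outside the group only miR-155 was on panel 1. When every panel was centred on its own mean, miR-720 (place 1) and miR-702 (place 3) stayed among the neighbours of miR-877*. The liver miRNA miR-192 took place 4 (0.539) for miR-877* and miR-484 took place 5 (0.659). For miR-702, miR-192 took place 1 with miR-877* at place 2, and miR-466d-3p stayed at place 1 for miR-877.

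Of other miRNAs known to be made without Drosha, 2 were compared with the mirtrons. These were miR-320 and miR-484, whose short precursors are capped transcripts and need no Drosha cut, while miR-1224, miR-1981 and miR-1982 of the same list were not analysed here. Both were on panel 1, were detected in all samples and passed in neither direction. The level of miR-320 was 1.04, 1.40, 0.98 and 2.83 in plaque 1 to 4, against 0.84, 1.32, 1.06 and 1.48 in undiseased artery 1 to 4, a log2 difference of 0.39 (SE 0.511, limma adjusted p = 0.559). That of miR-484 was 3.67, 3.47, 2.94 and 5.41 in plaque 1 to 4, against 3.35, 3.43, 3.19 and 3.10 in undiseased artery 1 to 4, a log2 difference of 0.61 (SE 0.552, limma adjusted p = 0.428). For both, plaque 4 stood well above the rest. The other plaque samples lay inside the undiseased range for miR-320. For miR-484, plaque 1 and 2 lay slightly above the undiseased range and plaque 3 below it. With panel centring the median log2 difference of the 2 was 1.05, against 0.50 without it. Whether these 2 differ from the mirtrons in their response was not tested.

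A list of miRNAs that lie in introns but are cut by Drosha was counted in the same fit. The list leaves out star strands and is not complete, so its counts do not describe all such miRNAs. Of 38 on the list found in the table, 21 were tested, of which 1 was higher, 6 were lower (18.6% of all 172 were called lower) and 14 did not pass. Their median log2 difference was -1.15, against -0.11 over all tested miRNAs, and it was -0.59 with panel centring. The largest differences among them were those of miR-342-3p (2.92, SE 0.997, limma adjusted p = 0.0428), from an intron of Evl, and miR-218 (-2.89, SE 0.705, limma adjusted p = 0.0146), from introns of the Slit genes. Of the 21, 19 were on panel 1, where 30 of 109 tested miRNAs were lower, 7 were higher and the median was -0.73, whereas all mirtron assays were on panel 2.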

How the data were processed

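The authors deposited a table of raw threshold cycles (Ct) of real-time PCR, 530 rows on 2 panels by 8 samples. The values carry no sign of normalisation or filtering, and 2249 of 4240 wells read exactly 40, the entry for no amplification. Per the labels, RNA was isolated with the RecoverAll kit from deparaffinized sections and probes carried FAM. The instrument, the software and any preamplification are not stated in the labels. Panels were separated where the control RNAs repeat. Each control RNA was averaged over all its rows, whatever their panel, so these references are not specific to panel 2. The title of plaque 4 gave its replicate number, since its description repeats that of plaque 3.

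Detection meant a Ct under 35, and other values were left missing. Centring subtracted, in each sample, the mean Ct over the 124 miRNAs that all samples detected. miRNAs with 3 or more detections per group were fitted with limma 3.58.1 in R 4.3.3 (lmFit, eBayes, two-sided), group being the only term, with Benjamini-Hochberg adjustment over all 172. The fit was tested on simulated data. The number of samples limits the precision, and the RNA per reaction was not measured.

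Members and lists were chosen with earlier results of these data known. The miR-877 assay, listed at first with other Drosha-independent miRNAs, matches the members' names and was counted there. Named miRNAs are the members, the listed Drosha-independent miRNAs, the 5 nearest patterns of each member, the control RNAs, the 2 largest differences of the intron list and tissue markers; miR-126 was named after its values were seen, and miR-192 leads its list under panel centring. Alternatives were other cutoffs, references and filters, a covariate, a replicate block and omission of each sample.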

Additional observations from a re-analysis of the deposited data

Results flagged for a closer look

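Within the groups of 4, the levels, raw Ct values and Ct differences of the mirtron assays were checked for a sample far from the others, in 16 sets of values. In 1 of them a sample stood out: the raw Ct of miR-877 in undiseased artery 4 was 28.2, against 27.2 to 27.3 in undiseased artery 1 to 3, a gap that made up 0.904 of the range. Chance alone marks about 5% of such sets. Undiseased artery 4 also had the latest mean raw Ct of its group (26.6), and its normalised level of miR-877 did not stand apart in this way.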

How the results depend on the processing

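The differences of miR-702 and miR-877* stayed above 0 in all 21 alternatives tried and those of miR-877 in 20 (on raw Ct, -1.32). On raw Ct they were 0.39 and 0.20, with panel centring 2.01 and 1.82, and with quantile normalization that of miR-702 was 2.17. That of miR-877 was 0.33 with quantile normalization, 0.30 with panel centring and 0.16 with mean raw Ct as a covariate. With 1 sample left out they ran from 2.79 to 3.42 for miR-702, 2.75 to 3.18 for miR-877* and 1.06 to 1.59 for miR-877. With the covariate that of miR-702 was 2.35 and that of miR-877* 2.95. The other filters, and undetected wells set to the cutoff, could not move these differences, since all samples detected these assays. The replicate block could not either, as each group holds every replicate number. No call on these assays is read as support, since their values were known when they were chosen. The Ct difference between miR-702 and miR-877* moved between -0.466 and 0.0174 (without undiseased artery 3) with 1 sample left out. Detection did not change at a cutoff of 32 or 38.

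Calls over all miRNAs, 27 higher and 32 lower, became 0 and 2 with control RNAs or U6, 0 and 81 on raw Ct, 15 and 20 with panel centring, 11 higher with quantile normalization, and 7 and 6 with the covariate. Leaving out 1 sample gave 12 to 33 higher and 7 to 34 lower, and undiseased artery 1, 2 or 3 lowered them most (14 and 11, 12 and 7, 13 and 7). The median of miR-320 and miR-484, 0.50, was -2.20 on raw Ct and 1.05 with panel centring. It was 0.01 with control RNAs, 0.05 with U6 and 0.03 with quantile normalization. The intron list's median, -1.15, was -1.51 with control RNAs, -1.48 with U6, -3.59 on raw Ct, -1.65 with quantile normalization and -0.59 with panel centring. With replicate number as a block, 27 were called higher and 22 lower, and the difference of miR-702 was 3.08 (SE 0.642); same-numbered samples correlated by -0.24 to 0.19 in their deviations, so the numbers were not taken as pairs. The causes of these changes were not tested.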
